A study of Rattus norvegicus with 12 samples.

Results

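The 9 genes described here regulate how many mitochondria a cell makes and how those mitochondria join and divide: Ppargc1a, Nrf1, Tfam, Polrmt, Mfn1, Mfn2, Opa1, Dnm1l and Fis1. They were taken by gene symbol and are 9 of the 34034 gene symbols counted by RNA-seq in INS-1E cells, a rat insulinoma line used as a model of the pancreatic β-cell. The 12 libraries form 4 groups of 3 biological replicates. All 4 groups are the same wild-type line, so each is a treatment of a single tumour-derived line and not of primary islets. Untreated cells received no cytokine. The IL-1βlow group received interleukin-1β at 10 pg/ml over 72 h, renewed daily in the same medium. The CYT group received IL-1β at 100 pg/ml plus interferon-γ at 5 ng/ml during 16 h. The IL-1βlow + CYT group had the low-dose phase first, a change of medium, and then the same challenge. The comparisons ask what each exposure alone did to the regulators, and whether the low dose altered the response to the challenge.

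Mitochondrial biogenesis is driven from the nucleus. Coactivators of the PGC-1 family act on transcription factors such as nuclear respiratory factor 1, which in turn act on genes for respiratory chain subunits and for the proteins that copy and transcribe mitochondrial DNA (mtDNA). Existing mitochondria fuse through dynamin-related GTPases of the outer and inner membranes and divide through another such GTPase recruited from the cytosol, and the balance of these activities sets the shape of the network. In β-cells, mitochondrial ATP production couples glucose to insulin release.

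Promoter sequences are shown for the 4 regulators that passed the test in at least 1 comparison, since these are the genes whose mRNA levels the results turn on. They are the 250 bases before the annotated start, taken from RefSeq on build GRCr8, whereas the counts were made on build mRatBN7.2. Of the 9 genes, 8 had an entry and Mfn2 had none. Each is written 5′ to 3′ on the strand of the gene, and capitals mark matches to any of 3 motifs that were searched on both strands and do not overlap one another here: TGCGCA (a core of the site of nuclear respiratory factor 1), CCGGAAG (the site of ETS factors such as GABP) and TGACGTCA (the cyclic AMP response element). All 4 genes shown lie on the plus strand: Nrf1 at chr4:59632176-59632425, Polrmt at chr7:10609946-10610195, Tfam at chr20:17355123-17355372 and Mfn1 at chr2:117241508-117241757.
Nrf1: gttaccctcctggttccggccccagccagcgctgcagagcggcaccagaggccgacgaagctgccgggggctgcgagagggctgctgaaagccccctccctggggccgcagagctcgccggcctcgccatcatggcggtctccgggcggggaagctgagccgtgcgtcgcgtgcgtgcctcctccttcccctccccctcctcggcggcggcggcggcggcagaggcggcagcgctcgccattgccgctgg
Polrmt: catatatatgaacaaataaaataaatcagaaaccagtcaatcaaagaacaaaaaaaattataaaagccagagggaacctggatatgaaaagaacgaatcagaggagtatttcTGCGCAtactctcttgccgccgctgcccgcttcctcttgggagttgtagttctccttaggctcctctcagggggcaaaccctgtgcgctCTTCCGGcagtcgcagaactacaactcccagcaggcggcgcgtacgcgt
Tfam: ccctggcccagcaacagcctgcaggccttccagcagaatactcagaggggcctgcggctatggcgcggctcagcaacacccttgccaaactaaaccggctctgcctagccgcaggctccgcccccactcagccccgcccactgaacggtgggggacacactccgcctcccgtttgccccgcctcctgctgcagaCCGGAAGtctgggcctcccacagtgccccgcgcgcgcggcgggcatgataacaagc
Mfn1: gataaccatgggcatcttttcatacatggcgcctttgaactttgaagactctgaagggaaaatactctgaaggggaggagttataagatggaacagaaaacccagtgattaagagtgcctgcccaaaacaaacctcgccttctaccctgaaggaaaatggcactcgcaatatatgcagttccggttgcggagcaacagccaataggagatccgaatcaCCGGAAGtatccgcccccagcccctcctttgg

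The Polrmt window held a TGCGCA match beginning 138 bases before the start and an ETS match, read on the opposite strand, beginning 49 bases before it. Tfam and Mfn1 each held an ETS match, beginning 56 and 32 bases before the start, and the Nrf1 window held none of the 3 motifs. Among the genes not shown, Fis1 held TGCGCA at 116 bases in 1 of its 2 listed promoters and Ppargc1a held TGACGTCA at 181 bases, whereas Opa1 and Dnm1l held none. Over 33469 promoters of this length, TGCGCA was present in 6.14%, CCGGAAG in 7.27% and TGACGTCA in 1.59%. These matches describe the letters in each window only.

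Expression is given as CPM, counts scaled to a common library size, after TMM scaling, which corrects each library's total for a few abundant transcripts. Differences are log2 fold changes with their standard errors (SE) from edgeR's quasi-likelihood test fitted over all genes, and a gene was called changed at a Benjamini-Hochberg adjusted p under 0.01 over the 14324 genes tested. A stricter rule also asks for a minimum log2 fold change of 1 (0.6 for IL-1βlow against untreated). All 9 regulators passed the filter on low counts. Totals ran from 15812640 to 20246806 counts per library, and the regulators' own counts from 73 (Ppargc1a) to 2759 (Mfn2). β-cell identity was checked on 7 markers, all expressed, whose summed level was 32900 to 39300 CPM in untreated, 28800 to 33700 in IL-1βlow, 10600 to 10900 in CYT and 15500 to 20100 in IL-1βlow + CYT cells. Of 6 α-, δ- and PP-cell markers only Gcg was tested (Irx2 and Hhex at 0 throughout), with summed levels of 185 to 367, 155 to 259, 24.2 to 63.1 and 73.3 to 151 CPM in the same order. Of 7 immune, fibroblast and endothelial markers 2 were tested and Ptprc was at 0 in every library, with summed levels of 12.5 to 17.4, 13.6 to 16.1, 7.05 to 7.97 and 8.90 to 11.8 CPM. All 3 sums were lowest in CYT, the group in which the regulators moved most, and their part in the results was not tested. Because the RNA is from whole cultures, fewer cells of a state and less RNA per cell cannot be told apart.

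The challenge changed 3 of the 9 regulators. Nrf1 and Polrmt rose in CYT cells, Mfn1 fell, and the other 6 did not pass the test. After low-dose IL-1β the same challenge left Nrf1 and Polrmt near their untreated levels, and both differed from CYT alone. The 3 of 9 called in CYT against untreated stand beside 49.7% of all genes tested (25.2% higher, 24.5% lower), so the regulators as a group were not called more often than the background. Past the fold minimum Nrf1 alone remained, beside 21.6% of all genes.

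**Figure D1:**
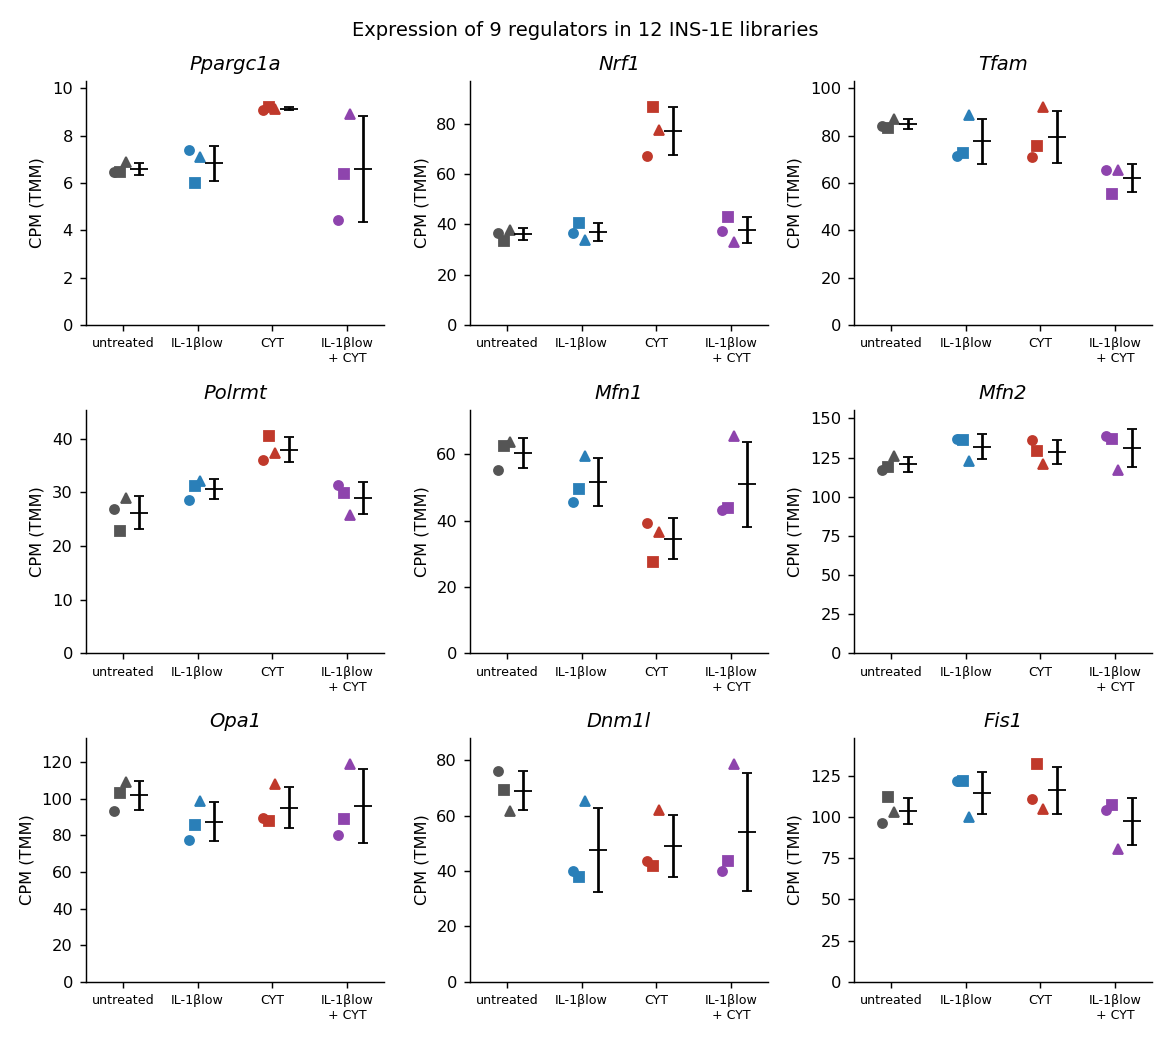
Expression of the 9 regulators in the 12 libraries, in CPM after TMM scaling on linear axes that start at 0. Circles, squares and triangles are replicates 1, 2 and 3, and the horizontal mark with whiskers is the mean ± SD of the 3 libraries in a group; Nrf1 reached 67.2 to 86.6 CPM in CYT cells and stayed at or below 42.9 CPM elsewhere.

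Among the genes of biogenesis, Nrf1, which encodes nuclear respiratory factor 1 (not the Nfe2l1 protein of the same abbreviation), had the smallest adjusted p of the 9 in CYT against untreated. Its level was 36.7, 33.4 and 37.9 CPM in the untreated libraries and 36.6, 40.7 and 33.6 CPM after IL-1βlow. It was 67.2, 86.6 and 77.5 CPM in the CYT libraries and 37.4, 42.9 and 32.9 CPM in IL-1βlow + CYT. Every CYT library lay above all 9 others, and the remaining groups overlapped. Mean Nrf1 was 77.1 ± 9.74 CPM in CYT against 36.0 ± 2.35 CPM in untreated cells (SD, n = 3 each), a log2 fold change of 1.10 (SE 0.12, adjusted p = 2.4e-06 by edgeR) or 2.14-fold. In IL-1βlow + CYT cells it was 37.7 ± 5.03 CPM, lower than in CYT by 1.03 on the log2 scale (log2 fold change -1.03, SE 0.12, adjusted p = 8.8e-06 by edgeR). The interaction, which is the CYT response after low-dose IL-1β minus the CYT response without it, was -1.07 (SE 0.17, adjusted p = 0.00031). Against untreated cells, IL-1βlow + CYT gave a log2 fold change of 0.07 (SE 0.12, adjusted p = 0.73).

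Polrmt, the RNA polymerase that transcribes mtDNA, moved the same way by less. It stood at 27.0, 22.8 and 28.9 CPM in untreated, 28.6, 31.2 and 32.1 in IL-1βlow, 36.1, 40.6 and 37.3 in CYT and 31.3, 29.9 and 25.7 CPM in IL-1βlow + CYT libraries. The CYT libraries were again above all others, and the other groups overlapped. The rise in CYT was 0.53 on the log2 scale (SE 0.11, adjusted p = 0.00088), 1.45-fold and under the fold minimum. IL-1βlow + CYT was lower than CYT by a log2 fold change of -0.39 (SE 0.11, adjusted p = 0.0099), which is at the edge of the threshold, and the interaction was -0.61 (SE 0.16, adjusted p = 0.0082). The -0.39 lost its call when any of 6 libraries was left out (CYT replicate 2 or 3, IL-1βlow + CYT replicate 2 or 3, untreated replicate 3 or IL-1βlow replicate 3), with values of -0.43 to -0.31 and adjusted p of 0.011 to 0.042. The interaction lost its call without any of 8 libraries (untreated replicate 1 or 2, or replicate 2 or 3 of any of the other 3 groups), where it ran from -0.66 to -0.53 with adjusted p of 0.011 to 0.024.

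Tfam, the factor that packages mtDNA and starts its transcription, did not follow Polrmt. Its level was 84.3, 83.1 and 87.1 CPM in untreated and 70.9, 75.5 and 92.1 CPM in CYT libraries, which overlapped (log2 fold change -0.09, SE 0.11, adjusted p = 0.49). IL-1βlow libraries held 71.4, 72.7 and 88.6 CPM. The IL-1βlow + CYT libraries, at 65.5, 55.2 and 65.3 CPM, were below all 9 others. Tfam was the single regulator called between IL-1βlow + CYT and untreated cells, at 62.0 ± 5.90 against 84.8 ± 2.07 CPM (SD, n = 3 each), a fall of 0.45 on the log2 scale (log2 fold change -0.45, SE 0.11, adjusted p = 0.0095 by edgeR). That is 1 of 9, beside 13.8% of all genes in the same comparison. The call was lost without untreated replicate 1, 2 or 3, IL-1βlow replicate 1 or 2, CYT replicate 2, or IL-1βlow + CYT replicate 1 or 2, with log2 fold changes of -0.51 to -0.38 and adjusted p of 0.011 to 0.055. Against CYT the difference was -0.36 (SE 0.11, adjusted p = 0.016 by edgeR). With replicate number as a block, which treats same-numbered libraries as matched, the difference was called at the same -0.36 (adjusted p = 0.0021 by edgeR). No filter on low counts (-0.39, adjusted p = 0.0027 by edgeR), DESeq2 (-0.38, adjusted p = 0.0049) and edgeR's exact test (-0.36, adjusted p = 0.0088) also called it. With the block these are 4 of 8 alternative fits, counted without those leaving out 1 library, and the others did not call it. Of the fits leaving out 1 library, the one without CYT replicate 1 called it (-0.47, adjusted p = 0.0061).

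Ppargc1a, which encodes the coactivator PGC-1α, was expressed at a few CPM. It was 6.47, 6.45 and 6.87 CPM in untreated, 7.38, 6.01 and 7.09 in IL-1βlow, 9.07, 9.21 and 9.15 in CYT and 4.44, 6.37 and 8.92 CPM in IL-1βlow + CYT libraries. The CYT libraries lay above all others and close together, whereas the IL-1βlow + CYT libraries were spread widely. Neither difference passed the test, at log2 fold changes of 0.47 for CYT against untreated (SE 0.20, adjusted p = 0.05) and -0.48 for IL-1βlow + CYT against CYT (SE 0.20, adjusted p = 0.057). Without IL-1βlow + CYT replicate 3 the second was called, at -0.75 (adjusted p = 0.0028). The gene overlaps an annotated pseudogene, Rpl36-ps6, on GRCr8, and strand use in the counting is not given in the sources used here, so its reads are uncertain to that extent.

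**Figure D2:**
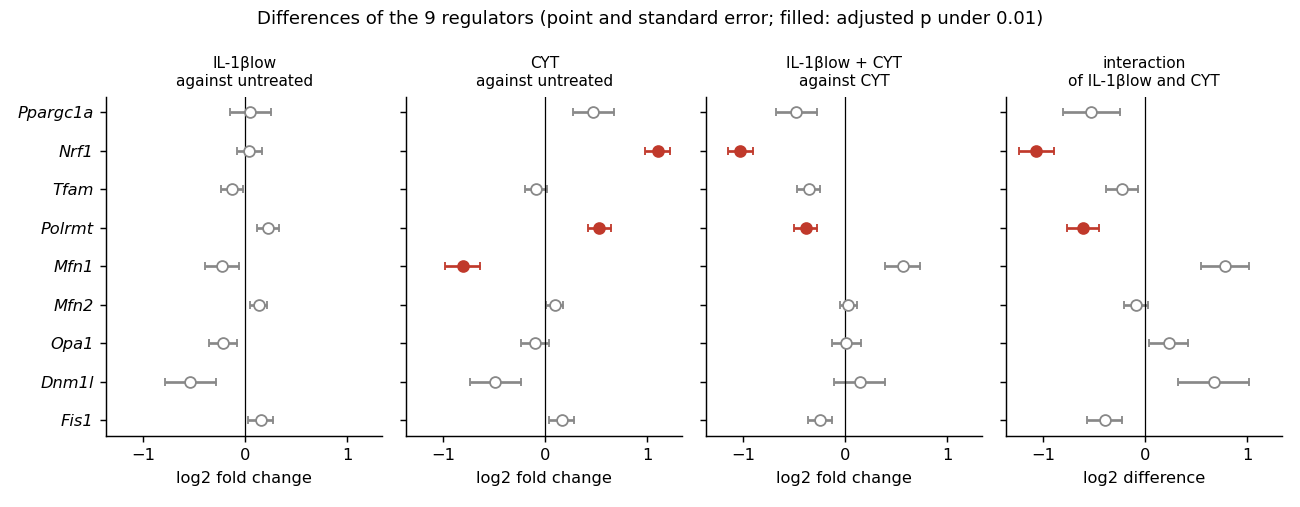
Log2 differences of the 9 regulators (points) with their standard errors (whiskers) for 3 comparisons and for the interaction, from the fit over 12 libraries. Filled points passed an adjusted p of 0.01; these are Nrf1, Polrmt and Mfn1 in CYT against untreated, and Nrf1 and Polrmt in the last 2 panels.

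Of the fusion genes, Mfn1 and Mfn2 encode the mitofusins that tether and fuse outer membranes, and they behaved differently. Mfn1 was 55.2, 62.4 and 63.6 CPM in untreated and 39.3, 27.6 and 36.6 CPM in CYT libraries, with no overlap. It fell by 0.81 on the log2 scale (log2 fold change -0.81, SE 0.17, adjusted p = 8e-04 by edgeR), from 60.4 ± 4.57 to 34.5 ± 6.12 CPM (SD, n = 3 each). The IL-1βlow libraries, at 45.7, 49.4 and 59.6 CPM, and the IL-1βlow + CYT libraries, at 43.1, 43.9 and 65.6 CPM, lay above every CYT library and overlapped the untreated ones. IL-1βlow + CYT against CYT gave 0.56 (SE 0.17, adjusted p = 0.013) and the interaction 0.78 (SE 0.24, adjusted p = 0.018), both short of the threshold. With the replicate block the first was called at 0.54 (adjusted p = 0.0021), so that 4 of 9 regulators (Nrf1, Polrmt, Tfam and Mfn1) in place of 2 differed between IL-1βlow + CYT and CYT, beside 45.3% of all genes in the same blocked fit. Without IL-1βlow + CYT replicate 2 the Mfn1 difference from CYT was called as well, at 0.65 (adjusted p = 0.0095). So it was with no filter on low counts (0.52, adjusted p = 0.00013 by edgeR), DESeq2 (0.54, adjusted p = 0.0047) and edgeR's exact test (0.56, adjusted p = 0.0041). With the block these are 4 of 8 alternative fits, counted without those leaving out 1 library. The interaction was called in 3 of 6 such fits: no filter (0.73, adjusted p = 2e-04 by edgeR), DESeq2 (0.75, adjusted p = 0.007) and the block. It just passed without IL-1βlow replicate 3, at 0.90 (adjusted p = 0.01 as rounded).

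Mfn2 varied little. Its level was 117, 119 and 126 CPM in untreated, 137, 136 and 123 in IL-1βlow, 136, 129 and 121 in CYT and 139, 137 and 117 CPM in IL-1βlow + CYT libraries. All 4 groups overlapped, and log2 fold changes over the 5 pairwise comparisons ran from -0.01 to 0.13, none of them called. The ratio of Mfn1 to Mfn2 CPM within a library, a description that takes no account of transcript length, averaged 0.5 ± 0.0272 in untreated, 0.394 ± 0.0794 in IL-1βlow, 0.269 ± 0.0478 in CYT and 0.396 ± 0.141 in IL-1βlow + CYT (SD, n = 3 each).

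Opa1, the GTPase that fuses inner membranes and shapes cristae, passed the test in no comparison. It was 93.5, 103 and 109 CPM in untreated, 77.7, 85.9 and 98.9 in IL-1βlow, 89.5, 87.7 and 108 in CYT and 80.4, 88.8 and 119 CPM in IL-1βlow + CYT libraries. The groups overlapped throughout, and in each of them replicate 3 was the highest library. The CYT difference from untreated was -0.10 (SE 0.14, adjusted p = 0.56).

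Dnm1l, which encodes the fission GTPase Drp1, was the regulator that depended most on replicate. It was 76.1, 69.5 and 61.8 CPM in the untreated libraries. In replicates 1 and 2 it was 39.9 and 37.8 CPM in IL-1βlow, 43.5 and 41.7 in CYT and 40 and 43.5 CPM in IL-1βlow + CYT, below every untreated library. In replicate 3 it was 65.2, 62.1 and 78.7 CPM in the same 3 groups, all above the lowest untreated library. Over all 12 libraries no difference was called: -0.54 for IL-1βlow (SE 0.25, adjusted p = 0.36), -0.49 for CYT (SE 0.25, adjusted p = 0.1) and -0.36 for IL-1βlow + CYT (SE 0.25, adjusted p = 0.34), each against untreated. With no filter on low counts the calls changed, at -0.52 for IL-1βlow (adjusted p = 0.0012), -0.42 for CYT (adjusted p = 0.0015) and 0.62 for the interaction (adjusted p = 0.0018), against 0.67 (adjusted p = 0.15) for the interaction with the filter. In replicates 1 and 2 alone the differences from untreated were -0.90, -0.79 and -0.80 for IL-1βlow, CYT and IL-1βlow + CYT, given as a description with no test, since the split was chosen on these values.

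Fis1, an outer membrane protein first described as an adaptor for fission, was 96.2, 112 and 103 CPM in untreated, 122, 122 and 100 in IL-1βlow, 111, 132 and 105 in CYT and 104, 107 and 80.7 CPM in IL-1βlow + CYT libraries. These groups overlapped in every pairing, and Fis1 passed the test in none. Its lowest library in each of the 3 treated groups was replicate 3, the opposite of Dnm1l and Opa1.

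**Figure D3:**
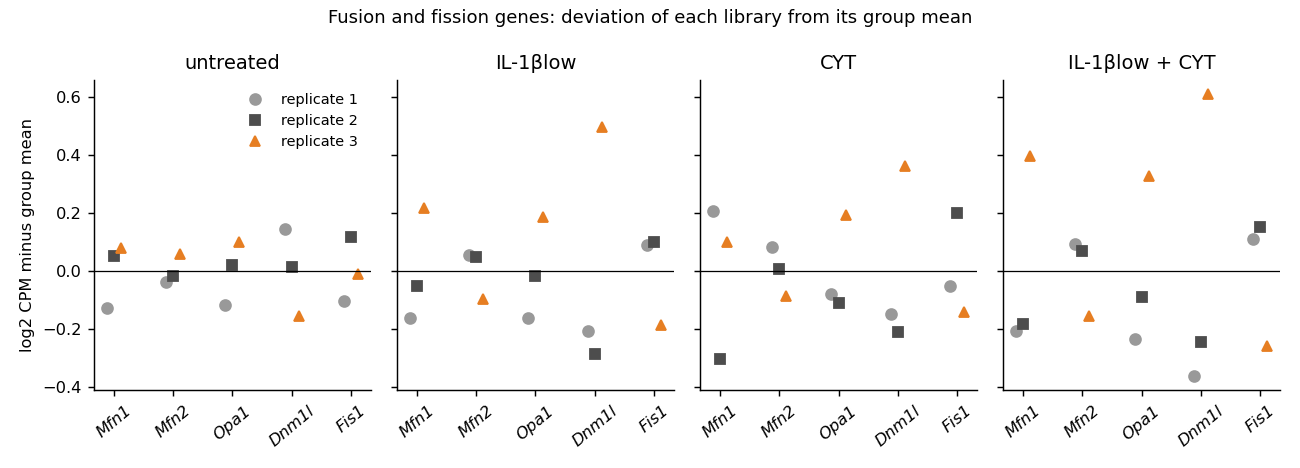
Deviation of each library from the mean log2 CPM of its group for the 5 fusion and fission genes, one panel a group, with replicates 1 to 3 as circles, squares and triangles. In the 3 treated groups replicate 3 lay 0.36 to 0.61 above the mean for Dnm1l and 0.14 to 0.26 below it for Fis1; in untreated cells it lay 0.16 below the mean for Dnm1l.

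Replicate 3 also lay off its group mean for the fusion genes. In the 3 treated groups it lay 0.18 to 0.33 above the mean for Opa1 and 0.10 to 0.39 above for Mfn1, and 0.09 to 0.16 below for Mfn2, on the log2 scale. For Mfn1 in CYT, replicate 1 (0.20) and replicate 2 (-0.30) lay further from the mean than replicate 3. In untreated cells replicate 3 was also above the mean for Opa1 (0.10). Without the replicate 3 libraries, a split chosen after the Dnm1l values were seen, 4 regulators were called in CYT against untreated, beside 51.2% of all genes. They were Nrf1, Polrmt (0.60), Mfn1 (-0.83) and Dnm1l (-0.79), the last in a fit chosen on its own values. That fit called, in IL-1βlow + CYT against CYT, Nrf1 (-0.92) and Ppargc1a (-0.73) and not Polrmt, beside 33.9% of all genes. What set these libraries apart was not tested, and the labels give no batch or date.

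Low-dose IL-1β alone called none of the 9 regulators by edgeR, beside 0.503% of all genes (72 of 14324). At an unadjusted p under 0.05 there was 1 regulator, Dnm1l, and 1982 genes in all. DESeq2 and edgeR's exact test also called none of the 9. Log2 fold changes ran from -0.54 (Dnm1l) to 0.22 (Polrmt), with a median of 0.04. IL-1βlow + CYT against IL-1βlow likewise called none by edgeR, with 1 regulator (Tfam, -0.32, SE 0.11, adjusted p = 0.081) at an unadjusted p under 0.05 and 0 by DESeq2 and the exact test, beside 8.20% of all genes. IL-1βlow + CYT against CYT called 2 of 9 (Nrf1 and Polrmt), both lower, beside 36.3% of all genes (17.1% higher, 19.2% lower), and 4 of 9 at an adjusted p under 0.05, beside 50.7%. The interaction called the same 2 genes, beside 22.6%. Past the fold minimum Nrf1 alone remained in both, beside 12.5% and 10.7% of all genes, and Tfam did not remain in IL-1βlow + CYT against untreated, beside 5.99%. These comparisons share control libraries, so their values are set side by side and are not independent of each other.

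The genes whose profile over the 12 libraries lay nearest to that of a called regulator were found by the root mean square difference of centred log2 CPM. For Nrf1, whose own range was 1.39 log2 units, they were Atxn2l (0.069) and Rpusd4 (0.071). For Polrmt, with a range of 0.83, they were Spindoc (0.069) and Rhot2 (0.075). For Mfn1, with a range of 1.24, they were Map3k7 (0.082) and Dpp8 (0.089).

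Beyond the 9, 108 genes of the same pathways were listed in 5 groups, of which 107 were tested. Of these 54 were called in CYT against untreated, 33 higher and 21 lower, or 50.5% beside 49.7% of all genes. In IL-1βlow + CYT against CYT 36 were called, 11 higher and 25 lower, or 33.6% beside 36.3%. With the replicate block, which treats same-numbered libraries as matched, 50 were called, 19 higher and 31 lower, beside 45.3% of all genes. None was called in IL-1βlow against untreated by edgeR, with 19 at an unadjusted p under 0.05 and 1 each by DESeq2 and the exact test. In CYT against untreated and in IL-1βlow + CYT against CYT, the total shares were close to those over all genes, and calls went in both directions. By direction the lists were less even than all genes, of which 25.2% were higher and 24.5% lower in the first comparison and 17.1% and 19.2% in the second. This difference in direction was not tested.

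**Figure D4:**
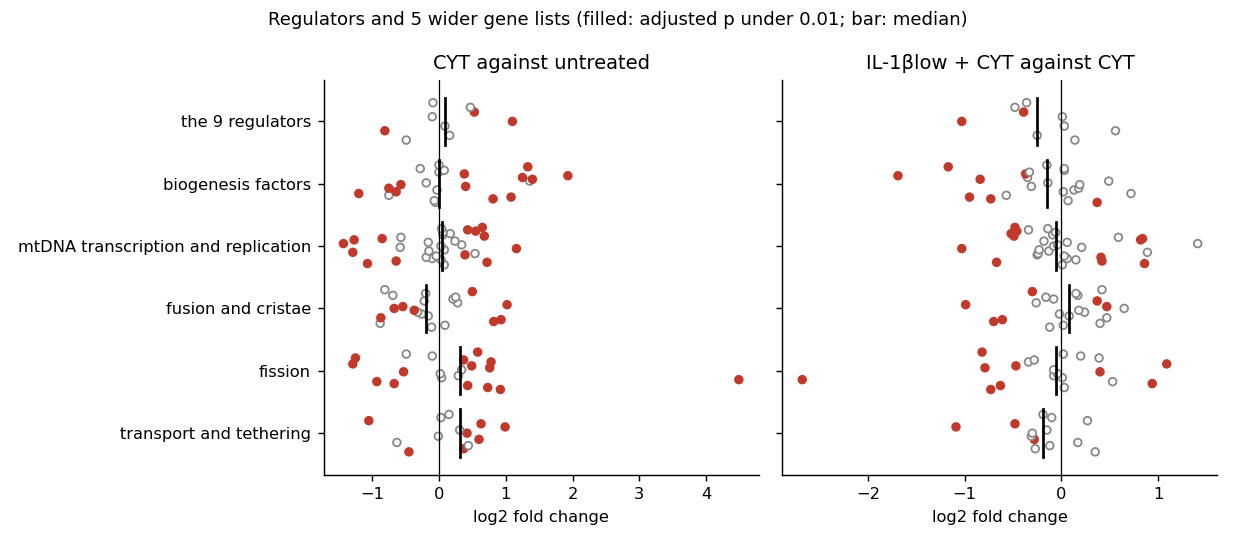
Log2 fold changes of the 9 regulators and of the tested genes of 5 wider lists in CYT against untreated (left) and IL-1βlow + CYT against CYT (right), each point a gene, filled where the adjusted p was under 0.01, with vertical bars at the list medians. Inf2 stands alone at 4.49 on the left and -2.68 on the right; the list medians lie between -0.20 and 0.32 on the left.

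Of 22 biogenesis factors, 8 rose and 4 fell in CYT cells (median log2 fold change 0.00, against -0.04 over all genes), and 1 rose and 6 fell in IL-1βlow + CYT against CYT (median -0.15, against 0.02). Ppargc1b, the coactivator related to Ppargc1a, rose from 3.21 ± 0.574 to 12.3 ± 1.17 CPM in CYT (log2 fold change 1.93, SE 0.20, adjusted p = 1.7e-06) and was 3.81 ± 0.990 CPM in IL-1βlow + CYT (-1.69 against CYT, SE 0.20, adjusted p = 1e-05). The fatty acid receptor Ppara rose by 1.40 in CYT, while the orphan receptor Esrrg (-1.20) and the GABP subunit gene Gabpb2 (-0.75) fell. Between IL-1βlow + CYT and CYT, Sirt3, a mitochondrial deacetylase, was lower by a log2 fold change of -1.17 (SE 0.11, adjusted p = 1.3e-06), at 24.6 ± 3.00 against 55.5 ± 4.83 CPM. The AMPK kinase gene Camkk2 was higher by 0.37.

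The list for transcription and replication of mtDNA held 31 tested genes, of which 7 rose and 6 fell in CYT (median 0.04) and 5 were higher and 6 lower in IL-1βlow + CYT against CYT (median -0.06). Mtpap, the mitochondrial poly(A) polymerase, rose by 1.16 in CYT and was lower by a log2 fold change of -1.03 in IL-1βlow + CYT than in CYT. Elac2, which trims the 3′ ends of tRNA precursors, followed it at 0.72 and -0.67. Among called genes, the largest falls in CYT were those of Primpol, a primase-polymerase (-1.43, at 0.753 against 2.06 CPM), and Mterf2, of the transcription termination factor family (-1.29). Among called genes, the largest rises between IL-1βlow + CYT and CYT were those of the nuclease-helicase Dna2 (0.86) and the RNA-binding protein gene Slirp (0.84).

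Of 21 tested genes for fusion and cristae, 4 rose and 4 fell in CYT (median -0.20), and 2 were higher and 4 lower in IL-1βlow + CYT against CYT (median 0.08). Oma1, the inner membrane protease that cleaves the Opa1 protein, rose from 4.58 ± 0.329 to 9.31 ± 0.854 CPM in CYT (log2 fold change 1.02, SE 0.14, adjusted p = 2.6e-05) and stood at 4.66 ± 0.269 CPM in IL-1βlow + CYT (-0.99 against CYT). The cristae junction gene Chchd6 rose by 0.93 in CYT, whereas Higd1a, an inner membrane protein (-0.87), and the mitoguardin Miga1 (-0.67) fell. Chchd3, of the same junction complex as Chchd6, was lower in IL-1βlow + CYT than in CYT (-0.70). Miga2 (0.47) and the prohibitin gene Phb1 (0.37) were higher.

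Of the 20 fission genes, 9 rose and 5 fell in CYT (median 0.32), 70% of the list beside the 49.7% of all genes. The same share was 54.5% for biogenesis factors, 41.9% for mtDNA transcription and replication, 38.1% for fusion and cristae and 53.8% for transport and tethering. Whether any list departs from the background was not tested. In IL-1βlow + CYT against CYT 3 were higher and 6 lower (median -0.06). Inf2, a formin that assembles actin where mitochondria are constricted, had the largest change of all listed genes, from 6.66 ± 0.822 CPM in untreated to 150 ± 35.7 CPM in CYT (log2 fold change 4.49, SE 0.19, adjusted p = 1.4e-10, 22.43-fold). At 23.4 ± 2.64 CPM in IL-1βlow + CYT it was lower than in CYT (-2.68, SE 0.17, adjusted p = 3.7e-08) and still higher than in untreated cells (1.81). Akap1, which anchors protein kinase A at the outer membrane, rose by 0.92, and Mtfr2, of a family of fission regulators, and Ppp2r2b, a phosphatase subunit, fell by 1.29 and 1.25 on the log2 scale. Between IL-1βlow + CYT and CYT, Mtfr2 was higher by 1.09 and the mitophagy receptor gene Fundc1 by 0.94, and the actin nucleator Spire1 was lower (-0.82).

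In the list for transport and tethering, 13 genes were tested, of which 5 rose and 2 fell in CYT (median 0.31) and 3 were lower in IL-1βlow + CYT than in CYT (median -0.19), or 2 higher and 4 lower with the replicate block. Snph, which docks mitochondria on microtubules, rose by 0.99 in CYT and was lower in IL-1βlow + CYT than in CYT (-1.09). The motor adaptor Trak1 gave 0.63 and -0.48. Trak2 (-1.05) and the outer membrane protein gene Armcx3 (-0.45) fell in CYT. Against untreated cells, IL-1βlow + CYT called 6 of the 107 genes (3 higher, 3 lower), or 5.61% beside 13.8% of all genes. Against IL-1βlow it called 4, or 3.74% beside 8.20%, namely Inf2 (1.82), Ppard (0.63), Bcl2l13 (0.42) and Trak2 (-0.46), the latter named after their values were seen. The 6 became 13 without IL-1βlow + CYT replicate 3, and the 4 became 2 without IL-1βlow + CYT replicate 1 or IL-1βlow replicate 2. Of the genes named from these lists, Ppargc1b, Ppara, Esrrg, Camkk2, Mtpap, Elac2, Primpol, Dna2, Slirp, Chchd6, Higd1a, Miga1, Akap1, Ppp2r2b, Spire1, Snph, Trak1, Trak2 and Ppard overlap another annotated gene on GRCr8, so part of their reads may be shared.

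The mtDNA itself holds 13 protein-coding genes, which Polrmt transcribes with Tfam. Because they share a template and a polymerase, and some, such as ND4L and ND4, share an mRNA, counts of them are not counts of independent genes. In CYT against untreated 11 of the 13 were lower and none higher, beside 24.5% of all genes called lower (median log2 fold change -1.18, range -2.74 to -0.19), the opposite direction to the Polrmt mRNA. In IL-1βlow + CYT against CYT 7 were higher and none lower, beside 17.1% of all genes called higher (median 0.99, range 0.18 to 2.42). With the replicate block, which treats same-numbered libraries as matched, 11 were higher, beside 45.3% of all genes called in either direction. The interaction called 6, all higher, beside 10.1% of all genes. ND4, a subunit of respiratory complex I, averaged 2180 ± 443 CPM in untreated, 1550 ± 843 in IL-1βlow, 538 ± 167 in CYT and 1750 ± 450 CPM in IL-1βlow + CYT (SD, n = 3 each). Its CYT difference was -2.02 (SE 0.33, adjusted p = 0.00012), and that of IL-1βlow + CYT from CYT was 1.70 (SE 0.33, adjusted p = 0.00069). COX1, a subunit of complex IV, was not called in either comparison (-0.19 and 0.18).

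**Figure D5:**
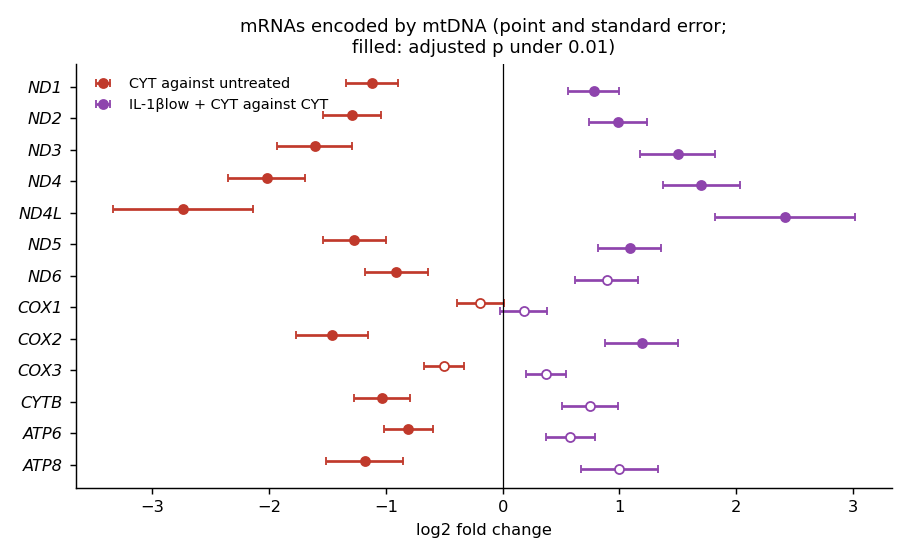
Log2 fold changes (points) with standard errors (whiskers) of the 13 protein-coding genes of mtDNA in CYT against untreated (red) and IL-1βlow + CYT against CYT (purple), filled where the adjusted p was under 0.01. All 13 points lie below 0 in the first comparison and above 0 in the second, from COX1 at -0.19 and 0.18 to ND4L at -2.74 and 2.42.

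The summed level of the 13 genes was 31700 to 41900 CPM in untreated, 22700 to 41600 in IL-1βlow, 17500 to 26600 in CYT and 28300 to 38800 CPM in IL-1βlow + CYT libraries, so that CYT lay below untreated and IL-1βlow + CYT cells without overlap. None of the 13 was called by edgeR in IL-1βlow or in IL-1βlow + CYT against untreated, where 1 and 0 had an unadjusted p under 0.05. Without the replicate 3 libraries 6 were lower in IL-1βlow and 2 in IL-1βlow + CYT than in untreated cells, beside 5.83% and 22.3% of all genes called in that fit, and the counts for CYT against untreated and for IL-1βlow + CYT against CYT were again 11 and 7. That split was chosen after seeing the data, so these counts only describe that fit and are no independent support. These genes have near-identical copies in the nuclear genome, so their counts are uncertain where reads are shared.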

How the data were processed

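Poly(A) RNA of 12 INS-1E cultures was sequenced, 3 libraries for each of 4 treatments. Per the labels and the study's methods, the authors used FastQC for read quality, rfastp for trimming, Rsubread for alignment (build mRatBN7.2) and featureCounts for counting. The deposited values are raw counts per gene symbol, not normalized, and 0 columns were left unused. The strand setting is not given in the sources used here.

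Genes above 1 CPM in at least 2 libraries were kept (14324 of 34034, 99.9% of counts), scaled by TMM and tested with edgeR 4.0.16 (glmQLFit and glmQLFTest, R 4.3.3) in a 4-group model over all 12 libraries (8 residual degrees of freedom), with Benjamini-Hochberg adjustment over all genes and a call at an adjusted p of 0.01, the false discovery rate in the study's methods. The script was tested on simulated data. Same-group libraries differed by more than counting noise (chi-square per degree of freedom 7.08 to 27.4).

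The 9 regulators, the wider lists and the tests were chosen with earlier results of these data known. The named genes are all 9 regulators, the 2 largest called rises and falls of each wider list in CYT against untreated and in IL-1βlow + CYT against CYT, and the 2 nearest genes of each regulator called in CYT. The markers Gcg, Irx2, Hhex and Ptprc and the mtDNA genes ND4, ND4L and COX1 are named as examples, outside these rules.

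The labels give a replicate number and do not say that libraries are paired. Same-numbered libraries deviated together in IL-1βlow + CYT against CYT (r of 0.116, 0.475 and 0.453 over genes) and against IL-1βlow (0.179, 0.469 and 0.52). Treating replicate number as a pairing there is an assumption drawn from these same data. For IL-1βlow + CYT replicate 1, r was as high with CYT replicate 2 (0.192) and IL-1βlow replicate 2 (0.181). Over all 18 same-numbered pairs r ran from -0.188 to 0.52 (mean 0.191, 13 above 0.1), and differently numbered pairs averaged -0.0942. Each gene was centred on the mean of the 3 libraries of its group, which ties these averages to each other. The negative average is therefore no separate support for a pairing. The block was fitted over all 12 libraries, untreated ones included. Alternatives were RLE size factors, no filter, at least 10 counts in every library, a replicate block, DESeq2 1.42.0, edgeR's exact test, only the 2 groups compared, an adjusted p of 0.05, the fold minimum, leaving out each library and, chosen after seeing the data, leaving out the replicate 3 libraries.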

Additional observations from a re-analysis of the deposited data

Results flagged for a closer look

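The difference between the CYT response with and without low-dose IL-1β was tested directly as an interaction, and it passed the threshold for 2 of the 9 regulators. For Nrf1 it was -1.07 on the log2 scale (SE 0.17, edgeR adjusted p = 0.00031): CYT raised the gene by 1.10 without low-dose IL-1β and gave 0.03 (SE 0.12, adjusted p = 0.92) after it. For Polrmt it was -0.61 (SE 0.16, edgeR adjusted p = 0.0082): CYT raised the gene by 0.53 without low-dose IL-1β and gave -0.08 (SE 0.11, adjusted p = 0.77) after it. Over all genes 22.6% passed the same test. The Nrf1 interaction kept its call when each library was left out in turn (-1.19 to -0.98), and the Polrmt interaction did not.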

How the results depend on the processing

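Nrf1, Polrmt and Mfn1 in CYT against untreated, and Nrf1 in IL-1βlow + CYT against CYT and in the interaction, kept direction and call under every alternative run except the fold minimum, which Polrmt and Mfn1 did not pass. Values that changed are given here by setting, and the cause was not tested. With the fold minimum, regulators called were 1 in CYT against untreated, 1 in IL-1βlow + CYT against CYT, 0 in IL-1βlow + CYT against untreated and 1 in the interaction. Wider-list genes called in the same order were 16, 6, 2 and 7, with 1 in IL-1βlow + CYT against IL-1βlow, and all genes 3096, 1785, 858, 1530 and 556. At an adjusted p under 0.05, 4 regulators were called in IL-1βlow + CYT against CYT, 1 wider-list gene in IL-1βlow against untreated, 16 in IL-1βlow + CYT against untreated and 44 in the interaction, and 193, 3124, 1855 and 5337 genes in all in IL-1βlow against untreated, IL-1βlow + CYT against untreated, IL-1βlow + CYT against IL-1βlow and the interaction.

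With no filter on low counts, 1 regulator (Dnm1l), 2 wider-list genes and 406 genes in all were called in IL-1βlow against untreated. That setting also called Dnm1l in CYT against untreated (-0.42, adjusted p = 0.0015), 4 regulators in IL-1βlow + CYT against CYT, 4 in the interaction and 12 wider-list genes in IL-1βlow + CYT against untreated. DESeq2 called 4 regulators in IL-1βlow + CYT against CYT, 1 wider-list gene and 219 genes in IL-1βlow against untreated, and 10 wider-list genes in IL-1βlow + CYT against untreated, and the exact test 4, 1, 221 and 11. A fit of only the 2 groups compared called 1 regulator in IL-1βlow + CYT against CYT, since Polrmt was lost, and it called Ppargc1a in CYT against untreated (0.50, adjusted p = 0.0086). For the no-filter, DESeq2, exact test and 2-group fits, shares over all genes in IL-1βlow + CYT against CYT are not given here. The main fit called 36.3% of all genes there and 22.6% in the interaction, so these regulator counts are not read as exceeding the background. The replicate block called 4 regulators in IL-1βlow + CYT against CYT, beside 45.3% of all genes. It called 14 wider-list genes in IL-1βlow + CYT against untreated, beside 19.9%. In the interaction it called 38 wider-list genes and 10 mtDNA genes (6 without it), beside 31.8%. In IL-1βlow against untreated it called 258 genes in all. In the comparisons with untreated cells the libraries share only a number, and there the block changed the call of no regulator, while Mfn1 was called in the interaction (0.78, adjusted p = 0.0025). Without the replicate 3 libraries, 1 regulator (Dnm1l), 9 wider-list genes and 819 genes were called in IL-1βlow against untreated, and 2, 23 and 3134 in IL-1βlow + CYT against untreated. That split was chosen on the Dnm1l values, so its call of Dnm1l carries no weight and the counts only describe that fit.

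Leaving out each library in turn, the calls ranged from 16 to 113 genes in IL-1βlow against untreated, 1 to 3 regulators in IL-1βlow + CYT against CYT, 0 to 1 in IL-1βlow + CYT against untreated and 1 to 2 in the interaction. Over all genes, IL-1βlow + CYT against CYT then called 4132 to 5242, IL-1βlow + CYT against untreated 1395 to 2615, and the interaction 2409 to 3313. Wider-list calls ranged from 5 to 13 in IL-1βlow + CYT against untreated and 2 to 5 against IL-1βlow.

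Changes of sign were all among differences that were not called. In IL-1βlow + CYT against CYT, Opa1 (0.01) was -0.01 with RLE factors, DESeq2 and at least 10 counts, -0.02 with no filter and -0.05 without the replicate 3 libraries, and Dnm1l was -0.01 without those libraries. In IL-1βlow + CYT against untreated, Ppargc1a (-0.01) was 0.01 with RLE factors and DESeq2, 0.03 with no filter and 0.00 with 2 groups, and Fis1 was 0.02 without the replicate 3 libraries. In IL-1βlow + CYT against IL-1βlow, Mfn2 (-0.01) was 0.01 with no filter, 0.00 with 2 groups and 0.02 without the replicate 3 libraries, where Polrmt was 0.04. Leaving out 1 library gave these ranges: against untreated, for IL-1βlow, Ppargc1a -0.01 to 0.13 and Nrf1 -0.04 to 0.10, for CYT, Tfam -0.18 to 0.02, and for IL-1βlow + CYT, Ppargc1a -0.28 to 0.20, Nrf1 -0.03 to 0.16, Opa1 -0.27 to 0.01 and Fis1 -0.17 to 0.03. For IL-1βlow + CYT against CYT they were Opa1 -0.17 to 0.09, Mfn2 -0.04 to 0.11 and Dnm1l -0.23 to 0.31, and against IL-1βlow, Ppargc1a -0.33 to 0.15, Nrf1 -0.07 to 0.12, Polrmt -0.15 to 0.00, Opa1 -0.05 to 0.24, Mfn1 -0.25 to 0.09, Mfn2 -0.06 to 0.07 and Dnm1l -0.19 to 0.47. Counting error was largest for Ppargc1a, which had as few as 73 counts in a library.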
